A study of Drosophila melanogaster with 39 samples.

Results

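The comparison described here set dorsal against ventral cells of wild-type first (prothoracic) leg discs of Drosophila melanogaster. Its members are the 3 arrays whose titles name D(wt) and V(wt) cells, out of 39 arrays in the series, and every gene probe on them. Imaginal discs are the larval epithelial sacs from which adult legs and wings form. The larvae were single males of the strain OregonR, staged by gut content as wandering larvae late in the third instar, and no heat shock or transgene is given for them. Each disc was parted by hand into an approximately dorsal and an approximately ventral piece, so dorsal, D(wt), and ventral, V(wt), cells of an array came from the same discs, and their RNA was amplified in 2 linear rounds. The series text calls the arrays independent replicates, and array 3 carries the dyes in the opposite order to arrays 1 and 2. The submitters state that the comparison was to record what normally tells dorsal from ventral leg cells, so that such genes could be told from those of cells switching from leg to wing fate. The pieces are mixtures of cell types, so fewer cells of a type and less RNA per cell cannot be told apart.

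The arrays used beside it are described by their own groups. D(wg) and V(wg) are dorsal and ventral pieces of first leg discs in which Wingless (Wg) was switched on by heat shocks at 60 and 72 h, with discs taken 3 days later and 4 to 8 discs pooled per sample. Those larvae carry y, w and hs-flp, a reporter in which vgBE-GAL4 drives UASGFP, and an Actinc5 cassette in which a y+ marker between FRT sites separates the promoter from wg+. The GFP-marked transdetermining (TD) cells had been cut out of the D(wg) pieces, whereas the D(wt) pieces are whole. Wild-type wing discs were set against a leg disc of the same OregonR larva on 9 arrays, 3 each with prothoracic, mesothoracic and metathoracic leg discs, and TD cells against V(wg) cells on 5. A contrast of D(wt)/V(wt) with D(wg)/V(wg) therefore also contrasts stock, heat shock, larval age, pooling and the removal of TD cells, which cannot be told apart.

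In the leg disc, cells of the posterior compartment make Hedgehog, which switches on different signals on the dorsal and the ventral side of the compartment boundary. The ventral side makes Wg, a Wnt ligand, and the dorsal side makes Dpp, a BMP ligand, and each represses the other. Wg turns on the T-box genes H15 and mid in ventral cells, and the T-box genes of the Dorsocross group mark dorsal cells. Where both signals meet the leg grows out along its proximal-distal axis.

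The 3 arrays held 8695, 6230 and 6804 values, or 53.1, 38.1 and 41.6 percent of the gene probes, and 7207 probes had a value on at least 2 arrays and were tested. Values are log2 ratios of dorsal over ventral cells, so 1 is a doubling in dorsal cells and -1 a doubling in ventral cells. Over shared probes the arrays correlated with r = 0.491 (arrays 1 and 2, 5929 probes), 0.242 (arrays 1 and 3, 6581 probes) and 0.481 (arrays 2 and 3, 5539 probes), as a description across probes. All 3 correlations were positive, also those with the array of swapped dyes. Among the marker genes, wg and Wnt6 lay on the ventral and opa and Doc1 on the dorsal side of every array. H15 was ventral, and dpp, Doc2 and Doc3 dorsal, on every array with a value. The ventral marker mid lay on both sides of 0, at -0.40, 0.02 and 0.26, and bi had a single value, 0.02. No probe intensities were used, so absolute levels are not given.

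The fit pooled over all 39 arrays called few genes, and the number called depended on the fit. Of 7207 probes, 50 were called at an adjusted p below 0.05 (0.694 percent), 26 higher and 24 lower in dorsal cells. An unadjusted p below 0.05 was found for 219, a smaller share than the 0.05 that such a cutoff gives where nothing differs. With 1 probe standing for each gene, 21 of 5909 genes were higher (0.355 percent) and 20 lower (0.338 percent). The median ratio over all tested genes was 0.01. Of the 41 called genes, 40 had a value on every array, and all 40 had the same sign on each of them. Among genes with 3 values, 26.4 percent had the same sign throughout. The called genes were chosen by these same values, which by itself favours 1 sign throughout, so their agreement is a description. The SE given with a fitted value rests on a spread pooled over all 39 arrays of the series, so it does not measure the spread of these 3. A fit on the 3 arrays alone called 223 probes, among them all 50, and those of its calls that fall on genes described below are named as such. In that fit 45.9 prior degrees of freedom outweigh the 2 of each probe, so every SE is drawn towards a common value. Its p-values therefore measure little of a gene's own spread either. By that fit 1.73 percent of genes were higher and 1.39 percent lower. With 3 arrays, an exact sign test of a single gene cannot give a two-sided p below 0.25.

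**Figure D1:**
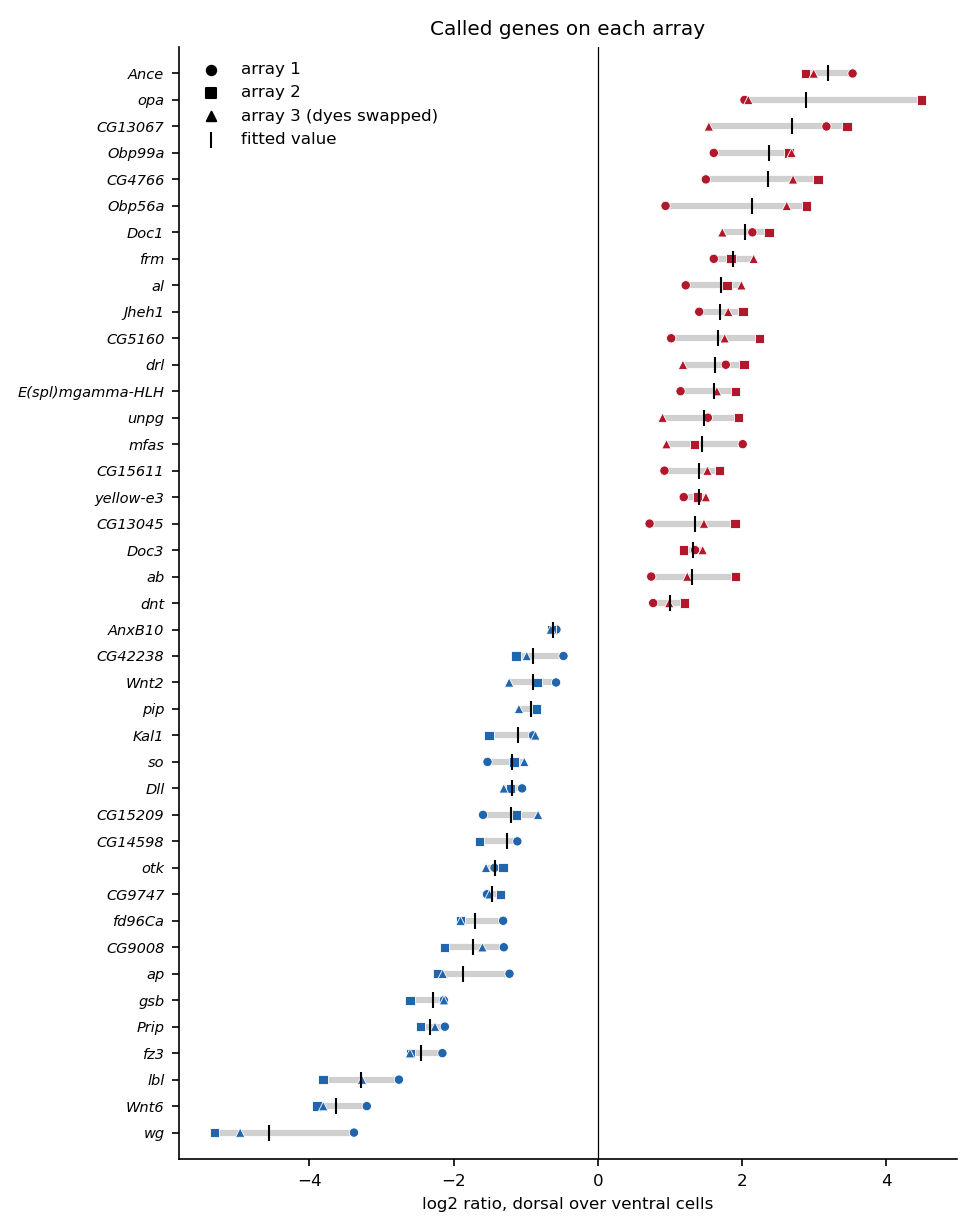
The log2 ratio of dorsal over ventral cells (horizontal axis) of the 41 called genes on array 1 (circles), array 2 (squares) and array 3 (triangles, dyes swapped), with the fitted value as a vertical tick and a grey bar from the lowest to the highest array. No gene has arrays on both sides of 0, wg lies lowest and Ance highest, and CG14598 has values on arrays 1 and 2 only.

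The called genes included transcription factor genes on both sides, Wnt ligands on the ventral side and receptors of Wnt-binding families on both. These roles are textbook knowledge assigned to called genes alone, after the calls were seen, so no share of the genes tested can be given for them. The sizes differed between arrays. Of the 40 genes with 3 values, 26 had their smallest ratio on array 1 and 24 their largest on array 2.

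**Figure D2:**
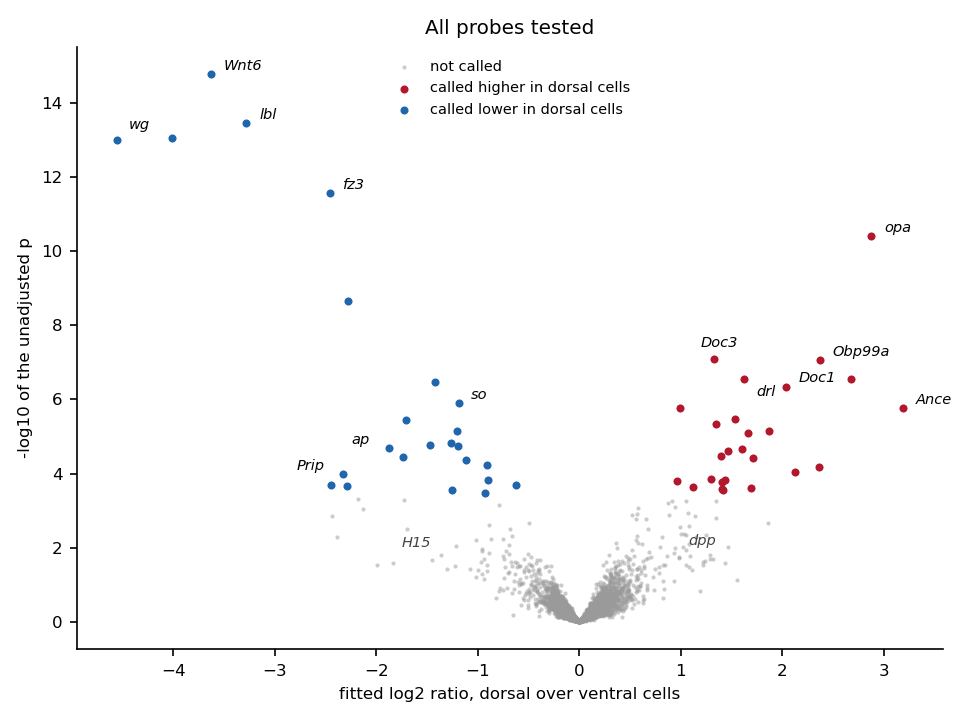
The fitted log2 ratio of dorsal over ventral cells (horizontal axis) against -log10 of the unadjusted p (vertical axis) for all 7207 probes tested. Called probes are blue (24 lower in dorsal cells) or red (26 higher), grey points were not called, and the unlabelled blue point beside wg is the other probe of wg.

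The Wnt ligands gave the widest differences. wg, the ligand that specifies ventral leg fate, lay at -3.38, -5.32 and -4.96 on arrays 1, 2 and 3 by the probe that stands for it, and Wnt6 at -3.20, -3.89 and -3.81. The 2 probes of wg agreed, the other one lying at -2.93, -4.25 and -4.88. All arrays were far below 0, with array 1 nearest to it for both genes. The fitted ratios were -4.56 ± 0.35 (SE, adjusted p = 1.73e-10) for wg, 23.5-fold more transcript in ventral cells, and -3.63 ± 0.24 (adjusted p = 1.21e-11) for Wnt6, 12.3-fold more. In the release 6 assembly of the fly genome Wnt6 is the next gene to wg, and Wnt10, the gene on its other side, had no value on these arrays. Wnt4, on the far side of wg, lay at -0.40, -0.40 and -0.61 (-0.48 ± 0.28) and was not called. Wnt2, elsewhere in the genome, was also lower in dorsal cells, at -0.58, -0.84 and -1.23 (-0.90 ± 0.19, adjusted p = 0.0125). Its call was lost without array 2 (adjusted p = 0.162) or array 3 (0.476), whereas those of wg and Wnt6 stood without any one array. Of 5 Wnt ligands tested, 3 were lower and 0 higher, with a median of -0.90 against 0.01 over all genes, and Wnt5 lay at -0.01 from 2 arrays.

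Among receptors, fz3, a Frizzled-family gene that Wg signalling itself induces, was strongly ventral. It lay at -2.15, -2.60 and -2.60, a range of less than 0.5, and was fitted at -2.46 ± 0.22 (adjusted p = 3.80e-09), 5.49-fold higher in ventral cells. otk, which codes for an inactive kinase-like receptor that binds Wnts, lay at -1.43, -1.31 and -1.55 (-1.42 ± 0.22, adjusted p = 0.000206). Its neighbour and paralogue otk2 had values of -0.95 and -0.98 on arrays 2 and 3 and was called by the 3 arrays alone (adjusted p = 0.000136). The Ryk-type receptor genes ran the other way. drl, whose product binds Wnt5 in the nervous system, lay at 1.77, 2.02 and 1.18 (1.62 ± 0.25, adjusted p = 0.000188), and the related dnt at 0.77, 1.20 and 0.99 (1.00 ± 0.17, adjusted p = 0.000785). All 3 arrays put both genes on the dorsal side. Leaving out array 2 moved dnt to an adjusted p of 0.0560, and the other 3 receptors were called without any one array.

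The shared machinery of Wg signalling gave a single call. Of 14 tested genes for secretion, reception and transduction, 1 was called, drl, and their median was 0.03. armadillo (arm), the fly beta-catenin, was fitted at -0.01, dsh at -0.01, sgg at 0.08 and fz at 0.39, none of them called. arr, the LRP co-receptor gene, had 0.99 and 0.98 on arrays 1 and 3 (0.99 ± 0.38) and was called by the fit on the 3 arrays alone (adjusted p = 9.81e-05) but not by the pooled one. Of 3 tested feedback targets, fz3 was called, while nkd (-0.15) and nmo (0.17) lay near 0.

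Other ventral markers were less uniform. H15, the T-box gene that Wg induces in ventral leg cells, lay at -1.26, -1.42 and -1.83, lower in dorsal cells on every array, yet its pooled SE was 0.59 and the fitted -1.44 was not called. The fit on the 3 arrays alone called it (adjusted p = 3.92e-11). So did the fit on slides of series 7, the series in these arrays' titles (-1.47 ± 0.28, adjusted p = 0.0140). Its paralogue and neighbour mid lay at -0.40, 0.02 and 0.26, on both sides of 0, and its second probe did the same at -0.36, -0.23 and 0.32. Of 4 ventral leg genes tested, 2 were lower and 0 higher (median -2.54), or 3 lower by the 3 arrays alone. The 2 are the markers wg and Wnt6, counted above among the Wnt ligands too, so this count restates them.

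Dorsal cells held more transcript of 2 Dorsocross genes. The Dorsocross cluster holds Doc1, Doc2 and Doc3, T-box transcription factor genes that depend on Dpp in the embryo. Doc1 lay at 2.14, 2.37 and 1.73 (2.04 ± 0.30, adjusted p = 0.000249), 4.12-fold more in dorsal cells, and Doc3 at 1.35, 1.19 and 1.45 (1.33 ± 0.18, adjusted p = 6.81e-05). Doc2, next to Doc1, had 1.15 and 0.82 on arrays 1 and 3 (0.98 ± 0.38) and was called by the 3 arrays alone (adjusted p = 0.000125). On every array with a value the cluster's genes were on the dorsal side, with Doc1 above the other members. opa, a zinc-finger gene of the Zic family, had the second-highest ratio of all called genes. It lay at 2.03, 4.49 and 2.09, with array 2 far above the others (SD 1.40), and was fitted at 2.88 ± 0.29 (adjusted p = 4.62e-08). The calls of opa, Doc1 and Doc3 stood without any one array, and without array 2 the adjusted p of opa was 1.89e-06.

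dpp itself lay at 1.04, 1.15 and 0.82, dorsal on every array and with a range of about 0.3. The fitted 1.00 ± 0.30 had an adjusted p of 0.264 and was not called, while the fit on the 3 arrays alone called it (adjusted p = 1.06e-06). tld, coding for a protease that frees Dpp from its inhibitor in the embryo, lay at 0.96, 1.26 and 0.87 (1.05 ± 0.27, adjusted p = 0.0723), and Dad, a Dpp-induced inhibitor, at 0.43, 0.59 and 0.67. brk, which Dpp represses, had -1.09 and -0.88 on arrays 1 and 2. magu, coding for a secreted modulator of Dpp signalling, lay at -0.73, -1.20 and -0.57, and the receptor gene tkv at -0.07, -0.77 and -0.71. None of these passed the pooled test. Of 13 ligand, receptor and transducer genes and 5 targets, 0 were called. The fit on the 3 arrays alone called 2 of the 13 higher (dpp and tld) and 1 lower (tkv, adjusted p = 0.0460), and 1 of the 5 higher (Dad) and 2 lower (brk and magu). grn, a GATA factor gene, lay at 1.27, 1.38 and 0.76 (1.09 ± 0.43) and was called by the 3 arrays alone (adjusted p = 1.11e-07). In all, 3 of 10 dorsal leg genes were higher and 0 lower (median 0.99), or 6 higher by the 3 arrays alone. The 3 are the markers opa, Doc1 and Doc3, so this count restates them. pnr (-0.02), caup (0.02), ush (0.26) and ara (0.27), which pattern the dorsal thorax, were near 0 or varied in sign between arrays, and bi had a single value, 0.02.

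Of the genes that mark the anterior and posterior compartments, hh, en, inv and ci each had the same sign on every array. The pooled test did not call the probes that stand for them. hh lay at -1.13, -0.98 and -0.82 (-0.96 ± 0.36), en at -1.05, -0.81 and -1.06 (-0.91 ± 0.43), and its paralogue inv at -0.38, -1.04 and -0.65 (-0.74 ± 0.29). These posterior genes, a secreted signal and the homeobox selectors, were lower in the dorsal piece on every array. ci, the anterior transcription factor of the Hedgehog pathway, lay at 1.17, 1.09 and 0.64 by the probe that stands for it (0.94 ± 0.35). Of its other probes, one lay at 1.43, 0.99 and 0.86 and was not called, and the other lay at 1.29, 0.84 and 1.15 and was called (1.12 ± 0.27, adjusted p = 0.0379), a call lost without any one array (adjusted p up to 0.510). By the 3 arrays alone hh and en (both adjusted p = 1.79e-06), inv (0.00169) and ci (3.46e-06) were called. The remaining 7 of the 11 tested genes of the list were not called by either fit. ptc, a target of the pathway, was fitted at 0.07, and smo at 0.09.

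**Figure D3:**
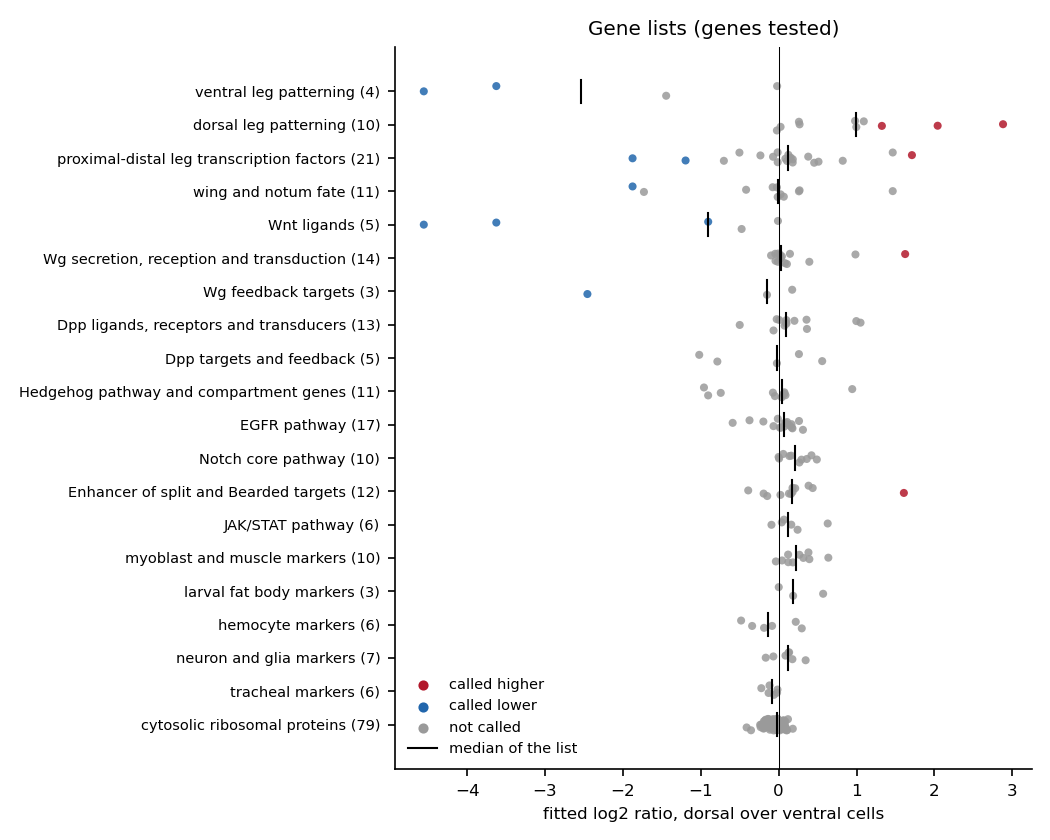
The fitted log2 ratio of dorsal over ventral cells (horizontal axis) of the tested genes of 20 gene lists (rows, number tested in brackets, points spread vertically for sight). Red and blue points were called by the pooled fit, and grey ones were not. Black ticks are list medians, from -2.54 for ventral to 0.99 for dorsal leg patterning genes, lists that hold the marker genes.

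Genes of the proximal-distal axis gave 3 calls among 21 tested. Dll, the homeobox gene that specifies the distal leg, lay at -1.05, -1.21 and -1.30 (-1.20 ± 0.23, adjusted p = 0.00521), lower in dorsal cells. A second probe of Dll lay at -0.15, -1.19 and -0.72 and was not called. ap, a LIM-homeobox gene that marks a tarsal ring in the leg and the dorsal compartment in the wing, lay at -1.23, -2.22 and -2.15 (-1.88 ± 0.37, adjusted p = 0.00563). al, the homeobox gene of the leg tip, ran the other way at 1.22, 1.79 and 1.99 (1.71 ± 0.36, adjusted p = 0.00872). Array 1 had the smallest ratio for all 3 genes. Each of these calls was lost without array 2 or without array 3, with an adjusted p of up to 0.200. dac, hth, exd, rn and B-H2 were fitted between -0.01 and 0.18, none of them called. pdm2 lay at 1.18, 2.22 and 1.24 (1.46 ± 0.53), with an adjusted p of 1.52e-10 by the 3 arrays alone. C15, a homeobox gene of the leg tip like al, had -0.58 and -0.82 on arrays 2 and 3. Lim1, a LIM-homeobox gene, had 0.75 and 0.90 on those arrays, and tsh, a zinc-finger gene of the proximal leg, lay at 0.35, 0.52 and 0.65. By the 3 arrays alone 4 of the 21 genes were higher and 3 lower, adding pdm2, Lim1 (adjusted p = 0.00178), tsh (0.0369) and C15 (0.0128) to the pooled calls. Dr, a homeobox gene of the wing and notum list, had -1.71 and -1.75 on arrays 2 and 3 (-1.73 ± 0.44, adjusted p = 0.0708, and 1.81e-10 by the 3 arrays alone). The wing selector genes vg and sd had no value on any of the 3 arrays.

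Several other transcription factor genes were ventral. lbl, a ladybird homeobox gene, lay at -2.76, -3.81 and -3.27 (-3.28 ± 0.24, adjusted p = 1.26e-10), 9.69-fold more in ventral cells and exceeded only by wg and Wnt6 among ventral genes. Its neighbour and paralogue lbe had no value. gsb, a paired-type homeobox gene, lay at -2.13, -2.61 and -2.13, tight on these arrays, but with a pooled SE of 0.54 (-2.29, adjusted p = 0.0364). fd96Ca, a forkhead gene, lay at -1.31, -1.91 and -1.90 (-1.70 ± 0.29, adjusted p = 0.00140), and its neighbour fd96Cb had -2.10 and -2.16 on arrays 2 and 3 (adjusted p = 0.110, and 3.44e-13 by the 3 arrays alone). so, a homeobox gene best known from the eye, lay at -1.53, -1.16 and -1.02 (-1.19 ± 0.20, adjusted p = 0.000658). Every array with a value put these genes on the ventral side. The calls of lbl and so stood without any one array. gsb lost its call without any one of them (adjusted p up to 0.465) and fd96Ca without array 2 or array 3 (up to 0.0711).

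On the dorsal side, E(spl)mgamma-HLH, a bHLH repressor gene that Notch induces, lay at 1.15, 1.91 and 1.65 (1.61 ± 0.32, adjusted p = 0.00563). It was the only one of 12 tested Enhancer of split and Bearded genes to be called, and the others were fitted between -0.39 and 0.44. Its call was lost without array 2 (adjusted p = 0.219) or array 3 (0.0858). Of 10 Notch core genes 0 were called. Of these 10, 9 had a ratio above 0 (median 0.21), against 3125 of the 5909 genes tested. The list's medians on arrays 1, 2 and 3 were 0.26, 0.49 and 0.04. fng, coding for a glycosyltransferase that modifies Notch, lay at 0.21, 0.74 and 0.59 and was called by the 3 arrays alone (adjusted p = 0.0379). unpg, a homeobox gene, lay at 1.52, 1.94 and 0.90 (1.47 ± 0.27, adjusted p = 0.00630), and ab, a zinc-finger gene, at 0.74, 1.91 and 1.24 (1.30 ± 0.30, adjusted p = 0.0272). Both were dorsal on every array and highest on array 2. Without array 2 both calls were lost (adjusted p = 0.219 and 1.00), as were that of unpg without array 1 (0.0627) and that of ab without array 3 (0.197). EGFR (17 tested), JAK/STAT (6) and Hox genes (3) had 0 pooled calls, and their medians were 0.07, 0.11 and -0.02. The 3 arrays alone called 1 EGFR gene lower, rho, a protease gene that frees EGFR ligands, at -0.20, -0.49 and -1.03 (adjusted p = 0.0191), and the proneural gene sc lower at -0.88, -0.35 and -0.34 (0.0331).

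The gene with the highest ratio was Ance, coding for a secreted peptidase related to angiotensin-converting enzyme. It lay at 3.53, 2.88 and 2.99 (3.20 ± 0.54, adjusted p = 0.000785), 9.16-fold more in dorsal cells, and no array was below 2.8. Of 2 called odorant-binding protein genes, Obp99a lay at 1.61, 2.65 and 2.69 (2.37 ± 0.34, adjusted p = 6.81e-05). Obp56a spread more widely, at 0.94, 2.90 and 2.62 (2.13 ± 0.47, adjusted p = 0.0182), with array 1 far below the others. Both are members of a family of small secreted carrier proteins. mfas, coding for the adhesion protein Midline fasciclin, was called by 3 probes, and the one that stands for it lay at 2.01, 1.34 and 0.95 (1.44 ± 0.33, adjusted p = 0.0275). Jheh1, an epoxide hydrolase gene acting on juvenile hormone, lay at 1.40, 2.01 and 1.81 (1.70 ± 0.40, adjusted p = 0.0392), and frm at 1.61, 1.84 and 2.16 (1.87 ± 0.34, adjusted p = 0.00245). The calls of Ance and Obp99a stood without any one array. Obp56a lost its call without array 2 or array 3, frm without array 3 (adjusted p = 0.109), and mfas and Jheh1 without any one, with adjusted p up to 0.666.

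Among ventral genes outside the transcription factors and Wnts, Prip, an aquaporin gene, lay at -2.12, -2.46 and -2.26 (-2.33 ± 0.51, adjusted p = 0.0208), 5.03-fold more in ventral cells. Kal1, coding for the fly anosmin, an extracellular matrix protein, lay at -0.90, -1.51 and -0.87 (-1.11 ± 0.23, adjusted p = 0.00985). pip, a sulfotransferase gene known from the dorsoventral axis of the egg, lay at -0.86, -0.85 and -1.09 (-0.93 ± 0.23, adjusted p = 0.0497), and the annexin gene AnxB10 at -0.57, -0.64 and -0.65 (-0.62 ± 0.13, adjusted p = 0.0347). Their arrays were close together, AnxB10 within 0.1 and Prip within 0.4. Prip, pip and AnxB10 lost their calls without any one array (adjusted p up to 0.763), and Kal1 without array 2 (0.417). A probe of vir-1, an immune-induced gene, lay at -3.27, -2.19 and -1.51 (-2.27 ± 0.27, adjusted p = 2.23e-06), called without any one array. The other probe, which stands for vir-1, lay at 0.01, 0.42 and 0.55 and was not called, so the 2 probes disagree in sign. Both were assigned to vir-1 through older gene numbers, which differ, and whether both lie in that gene was not checked.

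The called genes known only by a number, and those outside the rule for naming genes, completed the set. Higher in dorsal cells were CG13067 (2.68 ± 0.38), CG4766 (2.36 ± 0.51), CG5160 (1.66 ± 0.26), CG15611 (1.40 ± 0.33), yellow-e3 of the yellow family (1.40 ± 0.28) and CG13045 (1.35 ± 0.19). CG4766 has mab-21 as its neighbour, and mab-21 lay at 1.83, 1.07 and 1.11 and was called by the 3 arrays alone (adjusted p = 2.64e-09). Lower in dorsal cells were CG9008 (-1.74 ± 0.36), CG9747 (-1.47 ± 0.29), CG14598 (-1.26 ± 0.29 by 1 probe and -1.26 ± 0.22 by another), CG15209 (-1.20 ± 0.18) and CG42238 (-0.90 ± 0.19). CG13067 and CG15209 were called without any one array, and each of the others lost its call without at least 1 (adjusted p up to 0.590). For CG14598 this holds for the probe that stands for it. The wild-type call of its other probe was not tested with an array left out. Through a probe other than the one that stands for them, cv-c, a RhoGAP gene, was higher (0.97 ± 0.20, adjusted p = 0.0289) and CG5080 lower on 2 arrays, at -3.30 and -1.58 (-2.44 ± 0.44, adjusted p = 0.0347). For cv-c the standing probe lay at -0.06 and was not called. For CG5080 it lay at -1.70, not called by the pooled fit but called by the 3 arrays alone (adjusted p = 4.84e-12). The calls by the other probes were lost without array 1 or array 3 for cv-c (adjusted p = 0.211 and 0.883) and, for CG5080, without array 2 (0.0560). The called CG5080 probe has no value on array 2, so its ratio stayed the same there, and without array 1 or array 3 it could not be tested. Likewise the CG14598 probe that stands for its gene has no value on array 3, the array without which its call was lost, and could not be tested without array 1 or array 2. The probe CG9644, which matches no current gene, was higher at 1.54 ± 0.25 and lost its call without array 2 (adjusted p = 0.0556).

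A further 25 genes had a mean beyond 1 in size and the same sign on every array without being called by the pooled fit. On the ventral side, Idgf3, coding for a secreted chitinase-like growth factor, lay at -2.39, -2.97 and -1.76 (-2.44 ± 0.67, adjusted p = 0.151). Its family member Idgf4 lay at 0.32, 1.60 and 1.46 (1.16 ± 0.38, adjusted p = 0.432), on the dorsal side. yellow-b lay at 1.78, 1.51 and 0.80 (1.35 ± 0.34, adjusted p = 0.0741), and CAH2, a carbonic anhydrase gene, at 0.86, 1.74 and 1.52 (1.35 ± 0.37, adjusted p = 0.170). The 3 arrays alone called all 4 of these genes (adjusted p up to 1.51e-06), which were chosen after their values were seen.

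Markers of other cells that a dissected disc can hold had 0 calls in the pooled fit and 1 by the 3 arrays alone. The myoblast and muscle list had 10 of 26 genes tested, fitted between -0.04 and 0.64 with a median of 0.22. Of these 10, 9 lay above 0, against 3125 of the 5909 genes tested. The list's medians on arrays 1, 2 and 3 were 0.22, 0.45 and 0.07. The fat body list had 3 of 11 tested (0.00 to 0.57), and 6 of 14 hemocyte genes lay between -0.48 and 0.30. The one call by the 3 arrays alone was the hemocyte marker Ppn, a matrix protein gene, lower in dorsal cells at -0.36, -0.89 and -0.31 (adjusted p = 0.0377). Neuron and glia genes (7 of 12) lay between -0.17 and 0.35, tracheal genes (6 of 11) between -0.22 and -0.02, and the 1 salivary gland gene tested at -0.05. The 79 ribosomal protein genes tested had a median of -0.03. The part of such cells in the genes that differed was not tested, and levels of the markers are not given by ratios. The 27 tested cuticle protein genes had 0 pooled calls and a median of 0.03, and the 3 arrays alone called 3 of them higher and 1 lower. Edg91 lay at 1.89, 0.98 and 1.00 (adjusted p = 1.35e-08 by that fit), Cpr47Ec at 1.90, 0.47 and 0.23 (0.000832), Pcp at 0.54 and 1.11 on arrays 1 and 2 (0.00245), and Cpr12A at -0.42, -0.40 and -0.78 (0.0255).

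The same contrast in discs that express Wg throughout had 22 calls among 7296 genes (0.302 percent). For the genes called in wild-type discs its ratios were mostly smaller. Of 39 with a value there, 38 had a smaller ratio in size, and the median size was 0.42 against 1.62 in wild-type discs. The genes were chosen by their wild-type ratio, which by itself favours a smaller one elsewhere, so these counts are a description. Of 20 dorsal genes 17 kept a ratio above 0, and of 19 ventral genes 14 kept one below 0. Of the 39 genes, 5 were also called in the Wg-expressing discs themselves, lbl, so, Wnt6 and wg on the same side and CG14598 on the opposite one.

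A test of the difference itself covered 6929 probes and called 8 of them, 3 with a higher and 5 with a lower ratio in wild-type discs, and 5 of 5695 genes by the probe that stands for them (0.0878 percent). With every array scaled to the same spread 54 probes were called, 33 higher and 21 lower. fz3 lay at -0.42, -0.45 and -1.02 in the Wg-expressing discs (-0.63 ± 0.22) against -2.46 in wild type, a difference of -1.83 ± 0.31 (adjusted p = 0.00238). opa lay at 0.47, -0.21 and 0.09 (0.10 ± 0.29) against 2.88, a difference of 2.78 ± 0.41 (adjusted p = 0.000511). Doc3 lay at -0.27, 0.13 and -0.01 against 1.33, a difference of 1.37 ± 0.26 (adjusted p = 0.0143). The call of Doc3 was lost without array 1 or 3 of either kind of disc (adjusted p up to 0.143), and that of opa in a fit on the 6 arrays alone (0.169). For these genes no array of one kind of disc overlapped with those of the other. They were chosen by this same difference, which by itself favours such a gap, so it is a description. Doc1 (0.31 ± 0.30 in Wg-expressing discs, adjusted p of the difference 0.182) and Wnt6 (-2.57 ± 0.24, 0.423) did not pass this test.

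The probes of wg itself parted in this comparison. The one that stands for wg gave -3.86 ± 0.35 in Wg-expressing discs, a difference from wild type of -0.70 that was not called (adjusted p = 0.597). The other gave -1.43, -0.80 and -1.20 (-1.16 ± 0.31), a difference of -2.85 ± 0.44 (adjusted p = 0.000596), and with both probes averaged the difference was not called (0.394). CG14598 changed sides, with 1.78, 1.62 and 1.41 in Wg-expressing discs (1.56 ± 0.22) against -1.12 and -1.64 on 2 wild-type arrays, a difference of -2.82 ± 0.37 (adjusted p = 0.000596), and its other probe did likewise. NetA, the gene of the guidance cue Netrin-A, had 0.71 and 1.17 on 2 wild-type arrays. On 2 arrays of Wg-expressing discs it had -1.57 and -2.29. The difference was 2.98 ± 0.54 (adjusted p = 0.0108, and 0.125 on slides of series 7). Between dorsal and ventral wild-type cells NetA was called by the 3 arrays alone (adjusted p = 0.000284) but not by the pooled fit. vir-1 by its called probe gave -0.36 ± 0.27 against -2.27, a difference of -1.91 ± 0.39 (adjusted p = 0.0220). That call was lost under 7 of 13 alternatives (adjusted p up to 0.425). Among them were fits without array 1 or array 2 of wild type or array 1 or array 3 of the Wg-expressing discs (up to 0.230).

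**Figure D4:**
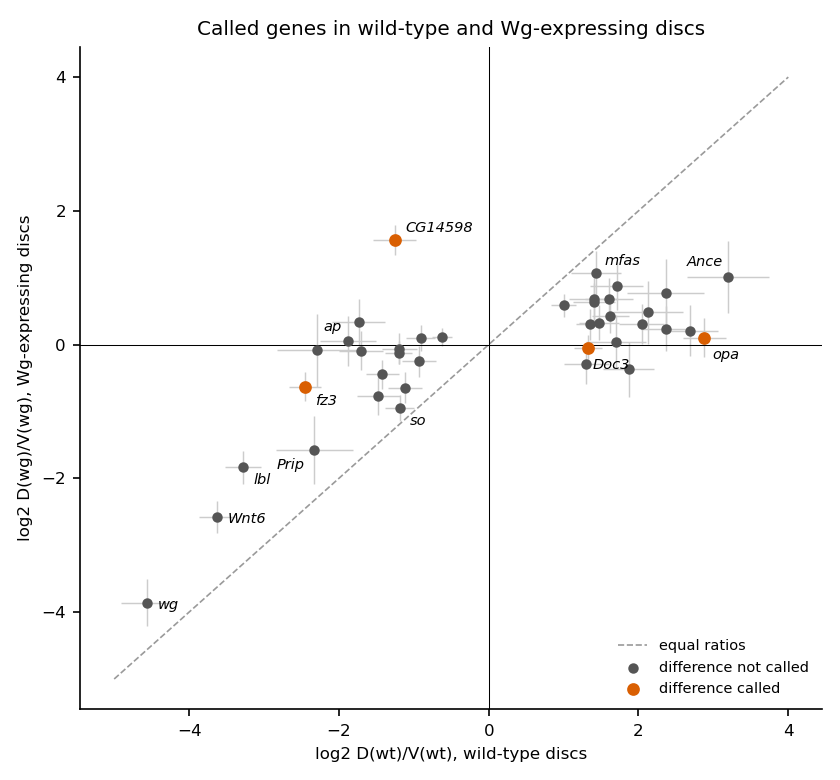
For the 39 genes called in wild-type discs with a value in both, the log2 dorsal over ventral ratio in wild-type discs (horizontal axis) against that in Wg-expressing discs (vertical axis), with the SE of the fit as grey bars and a dashed line of equal ratios. Of the 39 genes, 38, all but CG14598, lie closer to 0 in Wg-expressing discs, the 4 orange genes differed by the test of the difference, and wg is shown by the probe that stands for it, whose difference was not called.

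Wing and leg discs of the same wild-type larvae gave a further reading of the called genes, on arrays that share no sample label with the dorsal and ventral pieces. The leg discs there are of all 3 segments, whereas the dorsal and ventral pieces are of first legs, so these values also differ in segment. There 4.57 percent of 5432 genes were called. Of 17 dorsal genes tested, 8 were higher and 2 lower in wing discs, and of 17 ventral genes 3 were higher and 10 lower. Doc1 (1.75 ± 0.18), Doc3 (1.43 ± 0.11), drl (1.42 ± 0.14), CG4766 (2.25 ± 0.29), yellow-e3 (1.01 ± 0.19) and dnt (0.94 ± 0.10) were higher in both dorsal leg cells and wing discs. Obp99a, dorsal in the leg, was far lower in wing than in leg discs (-3.55 ± 0.20), as was E(spl)mgamma-HLH (-1.26 ± 0.20). The ventral genes gsb (-5.07 ± 0.31), lbl (-4.61 ± 0.14), fd96Ca (-3.17 ± 0.20), CG9747 (-1.58 ± 0.16), Wnt2 (-1.10 ± 0.11), so (-1.03 ± 0.11), Dll (-0.98 ± 0.13) and Wnt6 (-0.88 ± 0.14) were lower in wing discs. ap (3.49 ± 0.21), CG9008 (1.97 ± 0.21) and CG42238 (0.95 ± 0.13) were ventral in the leg and higher in the wing. wg (-0.14 ± 0.20), fz3 (-0.19 ± 0.12), Prip (0.05 ± 0.32), opa (-0.18 ± 0.17) and Ance (0.32 ± 0.31), among the widest ratios within the leg disc, were not called between wing and leg discs.

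**Figure D5:**
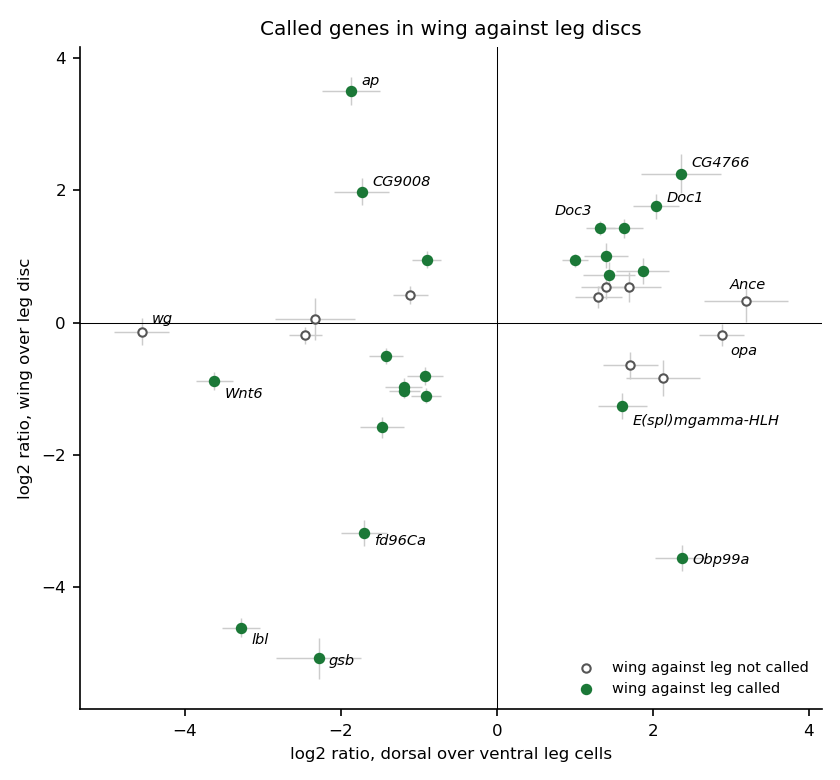
For the 34 called genes tested in both comparisons, the log2 ratio of dorsal over ventral leg cells (horizontal axis) against that of wing over leg discs (vertical axis), with the SE of the fit as grey bars. Filled points were called in wing against leg discs, open points were not, and ap and Obp99a lie far off in the upper left and lower right quadrants.

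TD cells, cut out of dorsal pieces, were also set against V(wg) cells of Wg-expressing discs. This contrast joins dorsal against ventral position with the switch from leg to wing fate, which cannot be told apart. There 14.0 percent of 6848 genes were called either way on 5 arrays, against 0.302 percent between D(wg) and V(wg) on 3. Of 20 dorsal genes tested, 7 were higher and 1 lower in TD cells, and of 18 ventral genes 14 were lower and 1 higher. wg (-3.21 ± 0.27), Wnt6 (-2.84 ± 0.18), lbl (-2.76 ± 0.19), Prip (-2.28 ± 0.40), otk (-1.43 ± 0.17), Wnt2 (-1.34 ± 0.15), fz3 (-1.21 ± 0.17) and Dll (-1.16 ± 0.18) were lower in TD than in ventral cells. CG4766 (2.05 ± 0.40), mfas (2.04 ± 0.26), Ance (1.99 ± 0.42) and CG15611 (1.97 ± 0.25) were higher. Obp99a, dorsal in wild-type discs, was lower in TD cells (-1.76 ± 0.26), and CG14598, ventral in wild-type discs, was higher (1.30 ± 0.17). opa (0.25 ± 0.22), Doc1 (0.49 ± 0.23) and drl (0.10 ± 0.19) were not called there, and Doc3 was higher by 0.47 ± 0.14.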

How the data were processed

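Each array compared 2 amplified RNA samples on spots for 16361 gene probes, after 144 control spots were left out. Per the labels, a deposited log2 value divides the later-named sample by the one named before it. The log base was taken from the values, and for the authors' filter and normalization the sources used here give nothing. Signs were reversed to make dorsal enrichment positive, and the median of every array was then set to 0. The medians of the deposited columns of the 3 arrays lay between -0.06 and 0.03.

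Probes were named through the RefSeq gene table of release 6 of the fly assembly, by current locus tag (12612), older tag (2750) or symbol (36), and the probe with the most values over all arrays stands for its gene. limma 3.58.1 (lmFit and eBayes, R 4.3.3) fitted all 39 arrays with 11 coefficients and a term for dye orientation (prior degrees of freedom 3.57, prior SD 0.28). Testing required values on at least 2 of the 3 arrays. Two-sided p-values were adjusted (Benjamini-Hochberg) over all probes tested and called at 0.05. The fit was tested on simulated data. The number of arrays limits the precision. The p-values of this fit rest on a spread between replicate arrays pooled over all 39 arrays, not on that of the 3 arrays alone.

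Genes are named by a rule: the 12 highest and 12 lowest called genes with a symbol, 3 values and 1 sign, the marker genes whatever their values, called members of the gene lists, and in lists described the 4 or fewer members of smallest p. Other called genes are given because all of them are. The members, lists, tests and rule were chosen with earlier results of these data known. Alternatives were the deposited centring, a common spread, no dye term, a value on every array and averaged probes. Others were the arrays of the comparison alone, slides of 1 series as numbered in the array titles, and leaving out each array.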

Additional observations from a re-analysis of the deposited data

Results flagged for a closer look

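A test of the difference between the dorsal over ventral ratio of wild-type discs and that of Wg-expressing discs singled out 8 probes. As log2 differences, wild type minus Wg-expressing, they were -2.85 for the second probe of wg, -2.82 and -2.74 for the probes of CG14598, -1.91 for the called probe of vir-1, -1.83 for fz3, 1.37 for Doc3, 2.78 for opa and 2.98 for NetA. The D(wg) pieces lacked their TD cells, and the stocks, heat shock and larval age differed, so the difference cannot be assigned to Wg alone. NetA rests on 2 arrays on either side, and the first probe of wg differed by -0.70 without passing the test. Groups of 3 arrays were not searched for outlying arrays.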

How the results depend on the processing

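The 50 called probes (26 higher, 24 lower) became 47 with values as deposited, 51 without a dye term, 48 with a value on every array and 42 with the probes of a gene averaged. They became 165 (99 higher, 66 lower) with arrays scaled to one spread and 223 (126 higher, 97 lower) with only the arrays of the comparison, and both sets held all 50. On slides of series 7 alone 37 were called, 17 of them higher, and 33 of the 50 were kept. Leaving out one array of D(wt) against V(wt) gave 19 to 35 calls, 10 to 18 higher and 9 to 17 lower. Fewer arrays leave fewer probes tested. Of 46 named results called, 15 kept their call under every alternative that gave a value (wg, Wnt6, lbl, fz3, opa, Doc1, Doc3, Ance, Obp99a, drl, otk, so, CG13067, CG15209 and vir-1 by its called probe), and 0 changed sign. Among genes not called, mid turned to 0.14 without array 1 and lay at -0.15 without array 3. The 8 calls of the difference from Wg-expressing discs (3 higher, 5 lower) became 54 (33 and 21) with arrays scaled to one spread, 15 (8 higher) with only the 6 arrays compared, 11 (6 higher) on slides of series 7 and 5 (2 lower) with probes averaged. Without one array they numbered 4 to 11, with 1 to 6 higher and 3 to 7 lower. Calls of CG14598 by its fuller probe and of fz3 were kept throughout, as was CG14598 by its other probe under all 10 that gave a value. Calls were lost for vir-1 under 7 of 13 alternatives (adjusted p up to 0.425), for Doc3 under 4 of 13 (up to 0.143, each without one array), for opa with only the 6 arrays compared (0.169), for the second probe of wg with probes averaged (0.394) and for NetA under 1 of 8, slides of series 7 (0.125). The cause of these changes was not tested. No paired analysis was possible because dorsal and ventral cells of the same discs are already the 2 channels of 1 array, and the array numbers only name arrays.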
